A study of Homo sapiens with 6 samples.

Results

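Stretches of the genome that carried a 5-methylcytosine (5mC) peak in high glucose, without a 5mC peak in normal glucose and without a 5-hydroxymethylcytosine (5hmC) peak at either glucose level, numbered 21139 in A2058 human melanoma cells. They were chosen by the presence or absence of a peak in 4 lists, 1 for each mark and glucose level. Peaks on chromosomes 1 to 22 and X that overlapped by at least 1 bp in any of the lists were merged into 319166 union regions, and those holding a high-glucose 5mC peak and nothing else were kept. These members made up 6.62% of all union regions and 21.1% of the 100220 high-glucose 5mC peaks (Wilson 95% interval 20.8 to 21.3). Each member was exactly 1 peak, and no base of a member lay in a peak of the other 3 lists.

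All samples came from A2058 cells that over-express wild-type TET2 (labelled TET2WT), grown for 7 days in high or in normal glucose. At each glucose level there was 1 library enriched with an antibody against 5mC (MeDIP-seq), 1 enriched with an antibody against 5hmC (hMeDIP-seq) and 1 input library, which makes 6 samples. The samples are of a single cell line, the level of the expressed TET2 is not given in the labels, and the glucose concentrations are not given there either. The inputs were not analysed here as samples. With 1 library per group there is no replicate check, so no p-value is given for any difference between the glucose levels. The intervals below cover counting error only, because regions are not replicates, and no molecular identifiers are named that would make the reads independent molecules.

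In mammalian DNA most 5mC lies in CpG dinucleotides, where DNA methyltransferases place and maintain it. TET2 is a dioxygenase that oxidises 5mC to 5hmC, the first step of active demethylation, and loss of 5hmC is a known feature of melanoma. The energy-sensing kinase AMPK, which is less active when glucose is plentiful, is known to phosphorylate and stabilise TET2, and this gives the background for comparing the glucose levels. In MeDIP-seq an antibody pulls down fragments that carry the modified base, so a peak means many methylated cytosines within a short stretch and does not give the methylation level of a single cytosine. A missing peak in turn means that too few fragments were pulled down to pass the caller's threshold, not that the base was unmodified.

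Positions are on the human build hg19. No hg19 sequence or gene annotation was used here, so the members are given by position and their genes and sequences were not analysed here.

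The members were narrow and low peaks. Their median width was 361 bp (range 324 to 1816), and 6017 of them, 28.5%, had the shortest width in the list, 324 bp. The authors' fold enrichment of the peak summit over the local background had a median of 4.89 (range 1.49 to 14.4). The authors' -log10 p-value of the peak had a median of 6.75 and ran from 2.88 to 29.1. All high-glucose 5mC peaks had medians of 500 bp, 6.58-fold and 10.5. The summit of a member held a median of 8 fragments, worked out from the fold and p-value, with 5 at the 5th and 13 at the 95th percentile (range 4 to 60). The members' total length was 8.80 Mb out of 71.4 Mb in the whole list.

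Members lay closer to the threshold of the list than its peaks as a whole. The expected number of fragments under the caller's background had a smallest value of 0.737 in the high-glucose 5mC list, the genome-wide background that applies where no local measure is higher. This background applied to 10290 members, or 48.7%, against 32.1% of all high-glucose 5mC peaks. Among these the commonest summit held 7 fragments (2743 members, at 4.60-fold and a -log10 p of 5.95). Summits of 6 fragments (1913 members) and 8 fragments (1845 members) followed, and 179 members stood on 4 fragments. Over all members, 2615 reached a -log10 p of 10, 351 reached 15 and 50 reached 20.

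**Figure D1:**
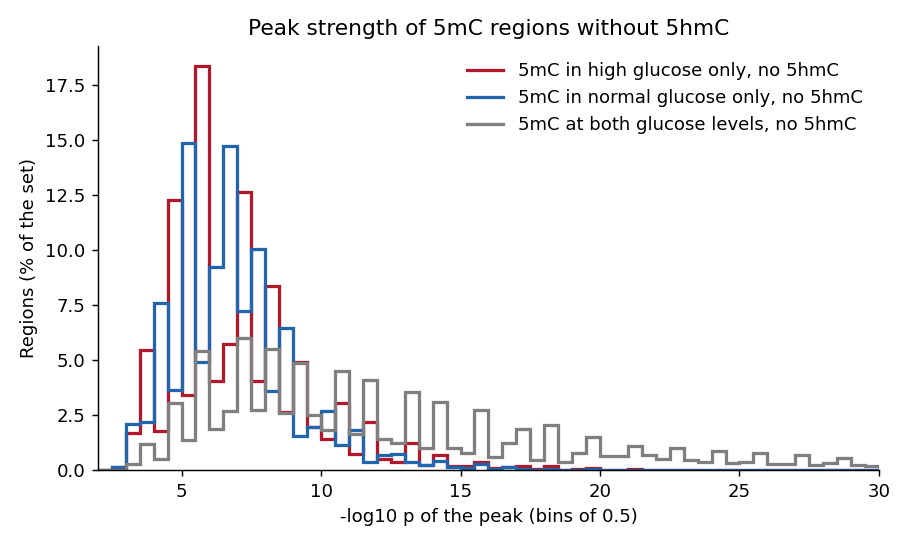
Distribution of the authors' -log10 p (horizontal axis, bins of 0.5) for members (red), 5mC peaks of normal glucose only without 5hmC (blue) and high-glucose 5mC peaks shared with normal glucose without 5hmC (grey), each as percent of its set. The red and blue sets peak between 5 and 8, and the grey set runs far past 10; the spikes come from whole fragment numbers at a fixed background.

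The share of peaks that were members fell with peak strength. It was 51.7% of 3009 peaks with a -log10 p below 4 (Wilson 95% interval 49.9 to 53.5), 26.9% of 14092 between 8 and 10, 3.33% of 9045 between 15 and 20 and 0.572% of 8746 between 20 and 30. Of 16228 peaks at 30 or more, 0 were members, which allows a share of up to 0.0185% taken as 3 counts of the total, or 0.0237% as the Wilson upper bound. The fall was interrupted once, with 34.8% between 6 and 7 against 37.0% between 7 and 8. At the genome-wide background no whole number of fragments gives a -log10 p between 6 and 7: 7 fragments give 5.95 and 8 give 7.04. Width gave the same order, from 56.1% of the 10722 peaks of shortest width to 1.18% of 12609 peaks of 1000 to 2000 bp, and 0 of 3900 peaks of 2000 bp or more, which allows up to 0.0769% taken as 3 counts, or 0.0984% as the Wilson bound. The rule itself sets part of this fall, because a wider peak has more bases that can meet a peak of another list. How large that part is was not tested.

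**Figure D2:**
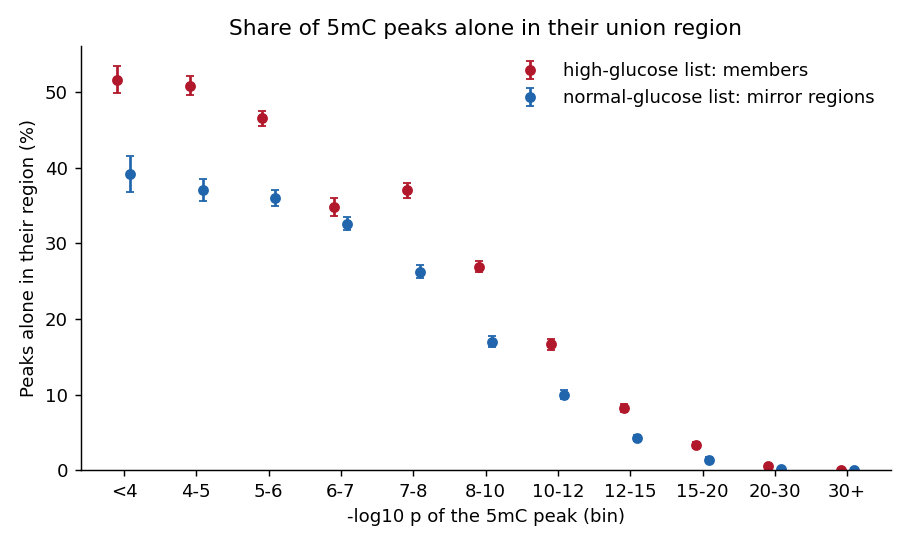
Percent of high-glucose 5mC peaks that are members (red) and of normal-glucose 5mC peaks that are alone in their region (blue, vertical axis), by bins of -log10 p (horizontal axis); bars are Wilson 95% intervals. Both shares fall to 0 at 30 and above, and red lies above blue in every bin below 30.

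The counterpart in normal glucose, 5mC peaks found in normal glucose only and without 5hmC, was used as a mirror set. It held 14086 regions, or 15.3% of the 91870 normal-glucose 5mC peaks (Wilson 95% interval 15.1 to 15.6). There were thus 1.50 members per mirror region (95% interval 1.47 to 1.53). The mirror regions resembled the members in width (median 354 bp), fold (4.95) and -log10 p (6.53), and their summits held a median of 7 fragments. High-glucose 5mC peaks that were shared with normal glucose and also lacked 5hmC, 36233 peaks called shared here, were stronger, with medians of 498 bp, 7.16-fold and a -log10 p of 11.8.

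The excess of members over mirror regions depended on how depth was treated. The 5mC library of high glucose was the deeper one by estimate, with a background 1.199 times as high. Its reads were estimated, not counted, at 6.14 M against 5.11 M in normal glucose. The estimate was worked out from the genome-wide background of each list, taking 2700 Mb as the genome size. It also took the shortest peak width of each list as the fragment length. Taking the same number of top peaks from both 5mC lists left 16876 members and 1.07 members per mirror region. That number was the 91870 peaks of the normal-glucose list, so this list was kept whole, down to a -log10 p of 2.92. The high-glucose list, where 91361 peaks reach 5, was cut below 5. The thresholds of the lists thus differed, and a normal-glucose peak whose partner fell out then counts as a mirror region. Without such matching, the ratio with a threshold set on the region's own peak was 1.50 from a -log10 p of 3 on and fell to 1.399 from 5 on. It then rose to 1.74 from 7 on, 1.95 from 10 on, 2.72 from 15 on (351 against 129) and 4.55 from 20 on (50 against 11). These thresholds do not always ask for the same number of fragments in both lists. On the genome-wide background, a -log10 p of 5 takes 7 fragments for a member and 6 for a mirror region, and 7 takes 8 for either. After the fragment numbers of the members were scaled down to the normal-glucose background, the ratio was 1.48 at 3, 1.31 at 5, 1.099 at 7, 1.09 at 10 and 1.05 at 15 (135 against 129), and 1.64 at 20 (18 against 11). The scaling also lowered the members' median -log10 p from 6.75 to 5.91, below that of the mirror regions. Depth and glucose level cannot be told apart with these libraries.

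Most high-glucose 5mC peaks of any kind lacked 5hmC, 57.2% of the 100220. The share was 76.3% without and 49.97% with normal-glucose 5mC in the same union region. These shares were not matched for width or strength, and a union region with 5mC of both levels spans the peaks of both. Among peaks without 5hmC, the median width was 361 bp without and 498 bp with normal-glucose 5mC. Of the 27707 high-glucose 5mC peaks in union regions without normal-glucose 5mC, 21139 were members, 15.3% (4232) lay in regions with 5hmC at both glucose levels, 5.10% (1413) with 5hmC in normal glucose only and 3.33% (923) with 5hmC in high glucose only. The 5hmC lists rest on 28.0 M and 27.5 M reads by the same estimate, more than the 5mC lists. When the 5hmC lists were left out of the rule, 28343 peaks of high-glucose 5mC met it.

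By the authors' -log10 p, the strongest member lay on chromosome 1 from 197318963 to 197319474. Its summit held 28 fragments where 1.21 were expected, which gave 13.1-fold enrichment and a -log10 p of 29.1. The nearest normal-glucose 5mC peak was 4871 bp away, and 5hmC peaks were 8998 and 8993 bp away in high and normal glucose. The next, on chromosome 2 from 236799579 to 236800507, had the highest fold of all members, 14.4, with 24 fragments on the genome-wide background. It was 929 bp wide and had peaks of the other 3 lists 1080 to 1265 bp away. The third in rank, on chromosome 9 from 106877418 to 106877994, stood far from normal-glucose 5mC: its 24 fragments were 84626 bp from the nearest normal-glucose 5mC peak and 11433 bp from the nearest 5hmC peak.

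Ranks 4 to 10 were taken by chr17:77846570-77847066, chr10:104444841-104445840, chr5:165723759-165724264, chr4:110482864-110483351, chr19:3721949-3722380, chr1:180808985-180809513 and chr2:44925794-44926397. The 10 had folds of 12.3 to 14.4, a -log10 p of 25.1 to 29.1 and 22 to 28 fragments, which correspond to 18.3 to 23.4 fragments at the depth of the normal-glucose library. Their widths ran from 432 to 1000 bp. The nearest normal-glucose 5mC peak lay 572 to 84626 bp away (median 5736), with the shortest of these distances on chromosome 19.

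The 5 widest members were not among the 10 strongest, but 4 of them lay above the members' median -log10 p of 6.75. The widest, on chromosome 8 from 24800276 to 24802091, spanned 1816 bp with 10 fragments at its summit, 6.33-fold enrichment and a -log10 p of 9.35, and a normal-glucose 5hmC peak began 527 bp away. Chromosome 3 from 126728307 to 126729965 (1659 bp), chromosome 11 from 62390726 to 62392257 (1532 bp), chromosome 12 from 1615132 to 1616647 (1516 bp) and chromosome 16 from 2485978 to 2487483 (1506 bp) followed. Each had a peak of another list within 1000 bp, and their -log10 p ran from 4.73 on chromosome 11 to 10.3 on chromosome 3. In all, 149 members were 1000 bp or wider.

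Some members stood on a high local background. The extreme case, singled out after its values were seen, was chromosome 7 from 61969056 to 61969546, where 60 fragments were counted and 40.0 expected. Its fold of 1.49 was the lowest of all members. Chromosome 10 from 42395881 to 42396444 had 53 fragments with 24.8 expected, and chromosome 2 from 92296589 to 92297129 had 31 with 14.1 expected. Such places were rare: at the 95th percentile of members the expected number was 1.30.

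Members usually had a peak of another list nearby. The median distance to the nearest normal-glucose 5mC peak was 5771 bp, to the nearest high-glucose 5hmC peak 4206 bp and to the nearest normal-glucose 5hmC peak 3674 bp. The order of the distances is also that of the numbers of peaks in the lists, 91870, 191314 and 209999. The distance to the nearest of the 3 was 1936 bp in the median, within 500 bp for 3431 members (16.2%) and within 1000 bp for 6736 (31.9%). No peak of another list lay within 10000 bp of 2253 members (10.7%), and none within 100000 bp of 25. From the mirror regions the median distance to 5mC of the other glucose level was 4984 bp, against 5771 bp from the members, and the list searched was the longer one. Median distances to high-glucose and normal-glucose 5hmC were 3928 and 3324 bp from mirror regions. From shared 5mC peaks they were 3611 and 3043 bp, so members lay farther from 5hmC than either set.

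**Figure D3:**
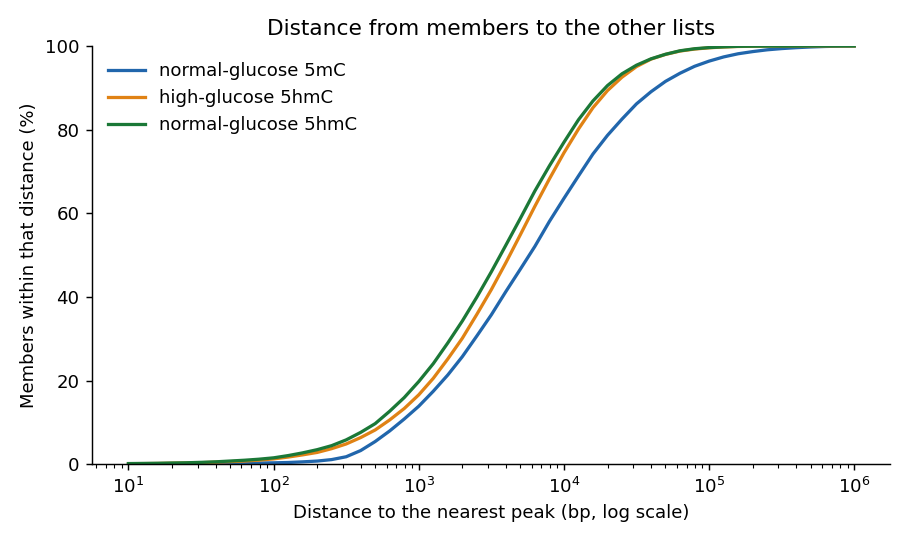
Percent of members (vertical axis) whose nearest peak in the normal-glucose 5mC list (blue), the high-glucose 5hmC list (orange) or the normal-glucose 5hmC list (green) lies within the distance on the horizontal axis (bp, log scale). The blue curve runs below both others, and its median is 5771 bp.

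The most isolated members of at least median strength formed a pair on chromosome 9, from 70650733 to 70651679 (11 fragments, a fold of 6.91) and from 70652613 to 70652967 (9 fragments, a fold of 5.76). The nearest peak of any other list was 444041 and 442753 bp away. Chromosome 1 from 148243878 to 148244204 was 297094 bp, chromosome 2 from 172171734 to 172172119 was 231118 bp and chromosome 5 from 177209654 to 177209979 was 150387 bp from the nearest such peak. Mappability of these places was not analysed here.

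At the other end, the rule splits near-identical places. A peak of another list ended or began within 10 bp of 73 members, and 6 of these touched it with 0 bp between. Members of this kind had a median -log10 p of 6.01 and a median width of 359 bp. The 49 high-glucose 5mC peaks that overlapped other lists by at most 10 bp, and so were left out, had a median -log10 p of 5.95 and a width of 383 bp. Just inside was chromosome 1 from 26811847 to 26812176, which touched a high-glucose 5hmC peak, and just outside was chromosome 1 from 42998435 to 42998758, with 1 bp of overlap and a -log10 p of 6.40. When peaks within 1000 bp were joined, 14180 members were left.

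Around the members, peaks of all lists were thinner than around shared 5mC. Of positions 1000 to 2000 bp from the summit of a member, 6.01% lay in a high-glucose 5mC peak, 5.40% in a normal-glucose 5mC peak, 5.33% in a high-glucose 5hmC peak and 6.27% in a normal-glucose 5hmC peak. Around mirror regions the same values were 5.87%, 5.43%, 5.59% and 6.69%. Around shared 5mC they were 8.76%, 8.14%, 5.86% and 6.93%, so the neighbourhoods differed more in 5mC than in 5hmC. At 5000 to 10000 bp the members' values were 6.10%, 5.60%, 6.07% and 7.18%. High-glucose 5mC thus exceeded normal-glucose 5mC by less than 1 percentage point on the flanks of members, and did so around mirror regions too.

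**Figure D4:**
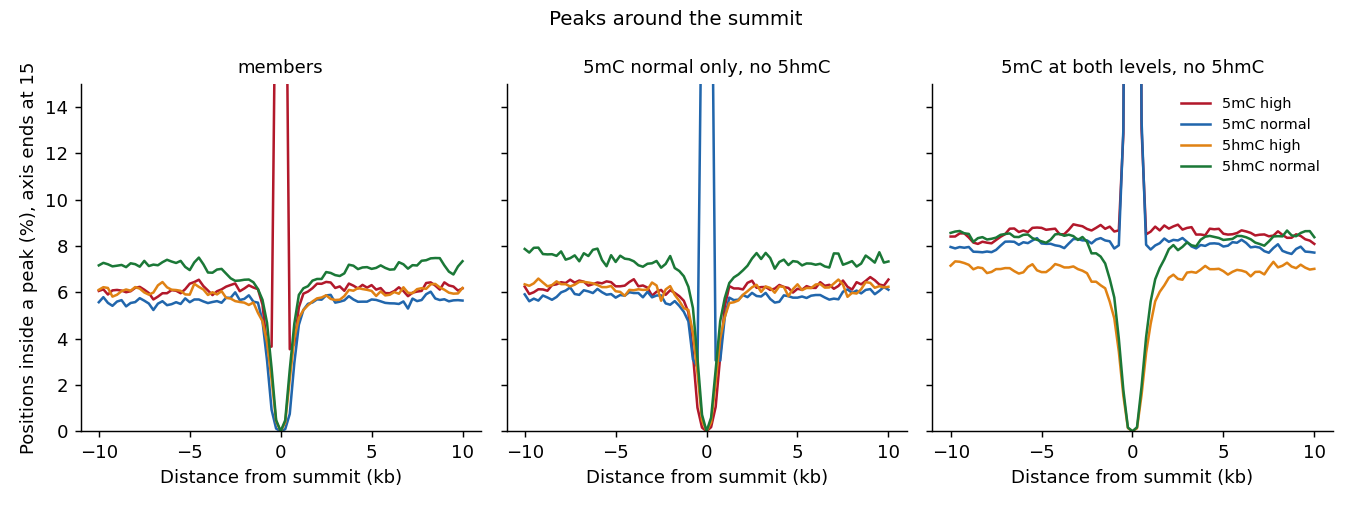
Percent of positions that lie in a peak of each list (vertical axis, drawn up to 15), by distance from the summit in kb (horizontal axis), for members, mirror regions and shared 5mC regions without 5hmC. The 4 lines lie between about 5 and 8 on the flanks of members and mirror regions, and the 5mC lines lie higher around shared 5mC; the dip and the peak at 0 follow from how the sets were chosen.

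Members had another member as their nearest high-glucose 5mC peak more often than their share of the whole list. The nearest other high-glucose 5mC peak was itself a member for 27.8% of members, where members make up 21.1% of the list, and for 66.2% it was in a region with 5mC at both levels, where such peaks make up 72.4% of the list. For mirror regions the same values were 20.6% against 15.3%, and 74.0% against 79.1%. The shares differ between windows and chromosomes, and the comparison with the whole lists did not account for this. An excess beyond such differences was not tested. Joined at gaps of up to 10000 bp, 6075 members (28.7%) fell in runs of 2 or more. There were 39 runs of 5 or more members, of which 6 held 7. Runs were not counted for mirror regions or for all high-glucose 5mC peaks, so these counts show no excess over peak density. The nearest other high-glucose 5mC peak lay at a median of 5123 bp from a member, which is within the gap.

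The 6 longest runs, a grouping chosen after the values were seen, were chr1:9833074-9864303, chr5:176576078-176603171, chr17:7399148-7437508, chr17:36950700-36978377, chr17:47032976-47065865 and chr19:2640910-2679005. They spanned 27094 to 38361 bp. Having been picked for 7 peaks of high glucose alone, they hold more high-glucose than normal-glucose 5mC peaks by that choice, from 12 against 7 on chromosome 17 from 7399148 to 7 against 1 on chromosome 17 from 47032976. No mirror region lay in the runs on chromosomes 1, 5 and 19, and 1 lay in each run on chromosome 17. The member peaks were weak in the runs too, with a median -log10 p of 4.91 to 7.04 per run and a highest value of 9.93, on chromosome 1.

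Members and mirror regions were both most numerous in windows of 1 Mb rich in 5mC found at both levels. Of 2875 windows, 2568 held a member, with a median of 5 and at most 40. The windows were split into 5 equal groups by their number of high-glucose 5mC peaks in regions with 5mC at both levels. The richest group held 45.4% of all members, 16.7 per window, and the poorest group held 3.46%, 1.27 per window. Of the 100220 high-glucose 5mC peaks, the richest group held 60380 and the poorest 1452. Members were 50.4% of the high-glucose 5mC peaks in the poorest and 15.9% in the richest group, and mirror regions were 38.3% and 11.6% of the normal-glucose ones. The sorting itself sets much of this fall in share, because the peaks it counts are part of the denominator. The ratio of members to mirror regions went from 1.71 in the poorest to 1.46 in the richest group. Members outnumbered mirror regions in 1834 windows, were outnumbered in 568 and were equal in number in 473, which takes in any window with neither. The ratios and the window counts were not scaled for depth.

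The window with most members was chromosome 19 from 2000001 to 3000000, with 40 members and 21 mirror regions. Chromosome 17 from 73000001 had 38 and 25, chromosome 17 from 37000001 had 37 and 18, and chromosome 12 from 122000001 had 36 and 29. The next 5 windows tied at 35 members. Chromosome 3 from 48000001 had 11 mirror regions and chromosome 12 from 123000001 had 23. The tied windows of chromosome 17, which start at 1000001, 2000001 and 27000001, had 26, 18 and 22. Over these 9 windows the ratio ran from 1.24 to 3.18. Members were 12.5% (chromosome 17 from 1000001) to 29.1% (chromosome 17 from 37000001) of their high-glucose 5mC peaks, which lies on both sides of the 21.1% of the list.

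Toward the chromosome ends, members became a smaller share of 5mC. They were 11.4% of the high-glucose 5mC peaks in the outermost 1 Mb (Wilson 95% interval 10.5 to 12.3), 10.3% from 1 to 2 Mb, 17.6% from 5 to 10 Mb and 26.1% from 50 Mb on (25.4 to 26.7). Mirror regions had the same course in the normal-glucose list, from 7.36% to 19.5%. Within 5 Mb of an end lay 13.4% of members (13.0 to 13.9), 12.7% of mirror regions (12.2 to 13.3), 18.03% of shared 5mC peaks without 5hmC and 22.0% of all high-glucose 5mC peaks. The ends are the outermost listed peaks of each chromosome, so that on chromosomes 13, 14, 15, 21 and 22 the first listed peak is not near the true chromosome end.

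All chromosomes held more members than mirror regions, 23 of 23, also when only peaks at or above a -log10 p of 10 were counted. Neither count was scaled for depth. Over all chromosomes together, the ratio at 10 was 1.95 without and 1.09 with scaling to the normal-glucose background. The share of high-glucose 5mC peaks that were members was highest on the X chromosome, at 29.9% (534 of 1787, Wilson 95% interval 27.8 to 32.0), followed by chromosome 6 at 28.3%. It was lowest on chromosome 19, at 13.4% (879 of 6561, 12.6 to 14.2). Across the 23 chromosomes the share of members and the share of mirror regions in their lists ranked alike (Spearman rho 0.81), a description over chromosomes that share the libraries and differ in density of 5mC.

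On 5 chromosomes at least 80% of the members stood on the genome-wide background, a grouping made after the values were seen, and over all peaks the ratio of members to mirror regions was highest on these 5. It was 2.171 on the X chromosome (95% interval 1.87 to 2.52), 2.03 on chromosome 14, 1.81 on chromosome 6, 1.77 on chromosome 18 and 1.73 on chromosome 22, or 1.88 in these together (3491 against 1859). On the other 18 chromosomes it ran from 1.32 on chromosome 9 to 1.64 on chromosome 4, and was 1.44 in all (17648 against 12227). The interval of chromosome 22, 1.51 to 1.98, overlaps that of chromosome 4, 1.49 to 1.81. The order did not hold among peaks that reached a -log10 p of 10. There the X chromosome had the highest ratio of all, 3.31 (43 against 13), followed by chromosome 20 at 3.00 (87 against 29). Chromosome 18 had the lowest, 1.30 (30 against 23), chromosome 6 had 1.89, chromosome 14 had 2.53 and chromosome 22 had 2.36. The pooled ratios at that threshold were 2.13 on the 5 chromosomes and 1.93 on the others, and the first was 1.10 times the second (95% interval 0.899 to 1.35). The whole 5mC lists, which include both sets, held 1.12 (chromosome 22) to 1.23 (X chromosome) high-glucose peaks per normal-glucose peak on these 5. On the others the value was 1.06 (chromosome 9) to 1.13 (chromosome 4).

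Of the members of these 5 chromosomes 80.1% to 85.8% stood on the genome-wide background, against 15.9% to 76.3% on the others. Chromosome 21 had 76.3% and a ratio of 1.38 (1.14 to 1.67). Genome-wide, the ratio was 1.96 for peaks on the genome-wide background of their own list (10290 against 5250) and 1.23 for peaks on a higher local background (10849 against 8836). Within the background classes the 5 chromosomes and the others were closer than in the pooled ratio, with 2.10 against 1.91 on the genome-wide background and 1.20 against 1.23 on a higher one. Matching to equal numbers of top 5mC peaks cut only the high-glucose list. The pooled ratio of the 5 chromosomes was then 1.07 times that of the others, where it was 1.30 times without this matching (95% interval 1.22 to 1.38). The cut fell below a -log10 p of 5, where members of 4 to 6 fragments on the genome-wide background lie. The 5 chromosomes were picked for members on that background, so the lower value is no check of the contrast. The part of the background in the contrast between chromosomes was not tested.

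**Figure D5:**
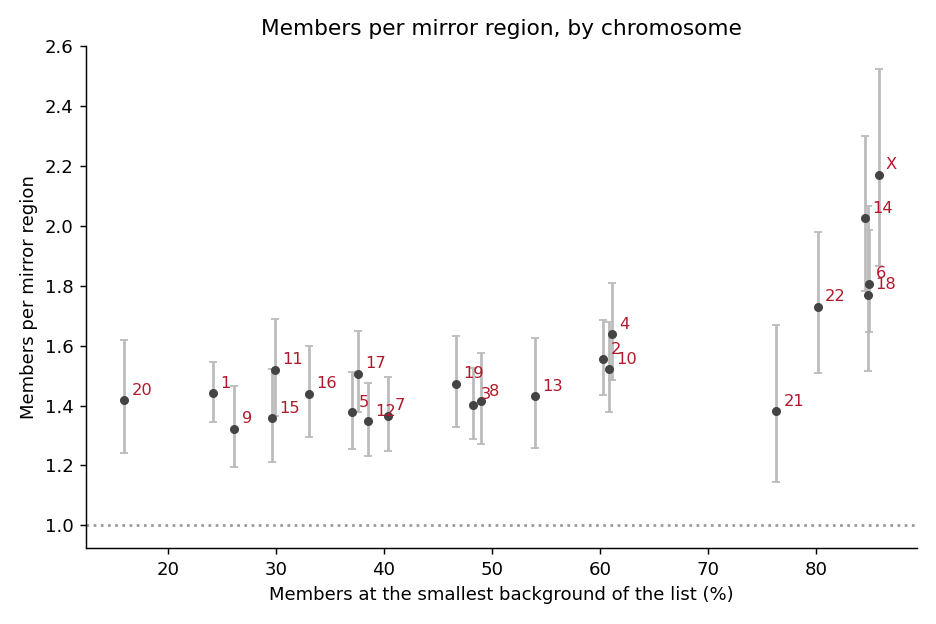
Members per mirror region (vertical axis, from below 1; bars are 95% counting intervals) against the percent of members on the genome-wide background of the list (horizontal axis), 1 point per chromosome. Over all peaks, chromosomes 6, 14, 18, 22 and X lie at 80.1% to 85.8% and at ratios of 1.73 to 2.171, and chromosome 21 lies at 76.3% with a ratio of 1.38.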

How the data were processed

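The authors deposited 1 narrow peak list per library, not pooled, per the labels, with a display score (not used), a fold (a ratio), a -log10 p, a -log10 q and a summit. Tools named without roles in the submitters' processing notes are Bowtie 1.0.0, bedtools 2.17.0, CASAVA 1.8.2 and SAMtools 0.1.18, and the build is hg19. The peak caller is not given in the sources used here. Peak names in the lists say Ctrl for high and Low for normal glucose, and the labels were followed. The highest q of the 5mC lists was 0.0496 (high) and 0.0488 (normal).

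Peaks of the Y chromosome and mitochondrial DNA (14 in the high-glucose 5mC list) were left out. Union regions and distances were computed with NumPy 2.4.6, pandas 2.3.3 and SciPy 1.17.1 in Python 3.11.15 and tested on simulated data. Fragments at the summit, t, and the expected number, L, were solved for each peak from fold = (t + 1)/(L + 1) and a Poisson p-value, which worked for all but 11 high-glucose and 4 normal-glucose 5mC peaks. The reading is inferred from the values. For scaling, t and L were multiplied by 0.834, the ratio of the 5mC backgrounds. Named regions were the 10 strongest, 5 widest and 5 most isolated members, the 5 fullest windows, the extreme chromosomes and the places at the edge of the rule. Members, lists and this rule were chosen with earlier results of these data known.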

Additional observations from a re-analysis of the deposited data

How the results depend on the processing

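With a -log10 p of at least 3 or a -log10 q of at least 2 in all lists, with autosomes only, and with the high-glucose 5mC list scaled to the normal-glucose background, the number of members (20605 to 21179), their share of the high-glucose 5mC peaks (20.9% to 21.2%), their ratio to mirror regions (1.48 to 1.51) and their share within 5 Mb of an end (13.4% to 13.5%) stayed within the counting interval or within 1.5 times. The scaling left 20883 members past the threshold of the list, so it could hardly act there. Joining peaks within 500 bp gave a share of 17.5% and 11.9% near ends, and within 1000 bp 14.1%, a ratio of 1.54 and 10.1% near ends. Asking for 50% overlap gave 22.96%, 1.47 and 13.96%. Leaving out the 5hmC lists gave 28.3%, 1.43 and 14.8%. Equal numbers of top 5mC peaks, for which only the high-glucose list was cut, gave 18.4% and a ratio of 1.07. A further setting kept only members and mirror regions whose own peak reached a -log10 p of 10, with all lists in full for the overlap. It left 2615 members, 5.04% of the high-glucose 5mC peaks of that strength, at a ratio of 1.95. With scaling as well, which was tried only once the data had been seen, there were 1457 members, 3.23%, at a ratio of 1.09. A zone of 10 Mb held 23.7% of members. The causes of these shifts were not tested, other than through the settings' own construction. Overlap with genes and base composition were planned and not run, since no hg19 annotation or sequence was used here. No paired analysis was possible because each group had 1 library. Summits of members held a median of 8 fragments, and fragment numbers at these places in the normal-glucose library were not analysed here.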
